A study of Mus musculus with 12 samples.

Results

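The comparison described here set cells given gefitinib alone against untreated cells of RAW264.7, an established mouse macrophage line, on 6 of the 12 bead arrays of the series. The members were chosen by treatment label, 3 gefitinib and 3 untreated arrays, and every gene detected on at least 3 of the 12 arrays entered the test. Messenger RNA was measured in 4 groups of 3 biological replicates. Cells were untreated, given 10 µM gefitinib, given 10 µg/ml CpG for 6 h, or given CpG 1 h after gefitinib. All groups were cultured in DMEM with serum, and the labels give neither the incubation time of the gefitinib-only cells nor a vehicle for the untreated ones. The CpG groups are used below only to set the gefitinib effect in resting cells beside that in stimulated cells. One cell line was used, so the values hold for this line.

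Gefitinib blocks the ATP pocket of the epidermal growth factor receptor tyrosine kinase, and it also binds other kinases, among them the cyclin G associated kinase GAK. Cells sense low sterol in the endoplasmic reticulum membrane through the SREBP transcription factors, which then switch on genes of cholesterol and fatty acid synthesis. A separate program runs through ATF4, a transcription factor made when amino acid shortage or other stress slows translation, and it raises amino acid transporters, amino acid synthesis enzymes and stress regulators. Macrophages hold both programs, and rely on sterol and amino acid supply for membrane turnover and secretion.

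The receptor itself was not seen. Each of the 4 Egfr probes was detected on 0 of the 12 arrays, with raw signals between 94.0 and 129 on the gefitinib and untreated arrays and a lowest detection p of 0.112. Probes for the ligand genes Ereg and Hbegf were detected on 0 of these 6 arrays, and the probe for Tgfa, another ligand, on 1. Erbb2, Erbb3, Erbb4 and Csf1r were not analysed here. Of 7 measured genes among receptor ligands, sheddases and adaptors, 0 passed the test in either direction, with a median log2 change of -0.08, or 0 with undetected genes at their bounds. Errfi1, the feedback inhibitor of the receptor, read 7.43, 7.56 and 7.57 on the log2 scale in untreated cells and 7.39, 7.50 and 7.13 with gefitinib. The Errfi1 groups overlapped, and the difference was -0.18 ± 0.11 (limma, adjusted p = 0.372, where ± marks the SE here and below and each group has n = 3 arrays). Gak read 11.39, 11.22 and 11.25 untreated and 11.62, 11.48 and 11.51 with gefitinib, a difference of 0.25 ± 0.10 that missed the threshold (adjusted p = 0.16). Low signal on these probes limits only what the arrays can detect.

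Each array detected 41.7% to 43.5% of its 25697 probes, and 3 arrays per group limit the precision. Of 11 macrophage marker genes with a probe, 9 were detected on all 6 arrays, among them Lyz2, Cd14, Spi1 and Ptprc, while Itgam and Fcer1g were detected on none. Their summed background-corrected signal was 45458 to 49080 in untreated cells and 45016 to 48613 with gefitinib. Markers detected on all 6 arrays numbered 0 of 6 for osteoclasts, 1 of 11 for fibroblasts and epithelium (Cdh1), 0 of 6 for lymphocytes and 1 of 7 for granulocytes (S100a8). The root mean square log2 distance over genes averaged 0.282 between untreated arrays, 0.259 between gefitinib arrays and 0.362 between the groups. CpG arrays lay 0.619 from untreated ones, and arrays of CpG with gefitinib lay 0.257 from those of gefitinib alone. In bulk RNA, fewer cells of a kind and less RNA per cell cannot be told apart.

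Gefitinib alone changed 632 of 8101 genes (7.80%), 402 higher (4.96%) and 230 lower (2.84%). The shares of 4.96% and 2.84% are the background for each list count below. Most changes were small. The median log2 change was 0.568 among genes that rose and -0.544 among those that fell, against -0.00191 over all genes, and 39 genes changed at least 2-fold, 33 up and 6 down. The 3 gefitinib arrays lay wholly above or below the 3 untreated arrays for 2517 genes (31.1%), which include all 632. Leaving out gefitinib 3 left 207 genes past the threshold, the fewest of the 6 such fits, and leaving out gefitinib 1 left 385, the most; 205 of the 207 were among the 632 with the same direction. Of 179 changed genes with several probes, 0 had another probe called the other way and 131 had another that was not called.

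**Figure D1:**
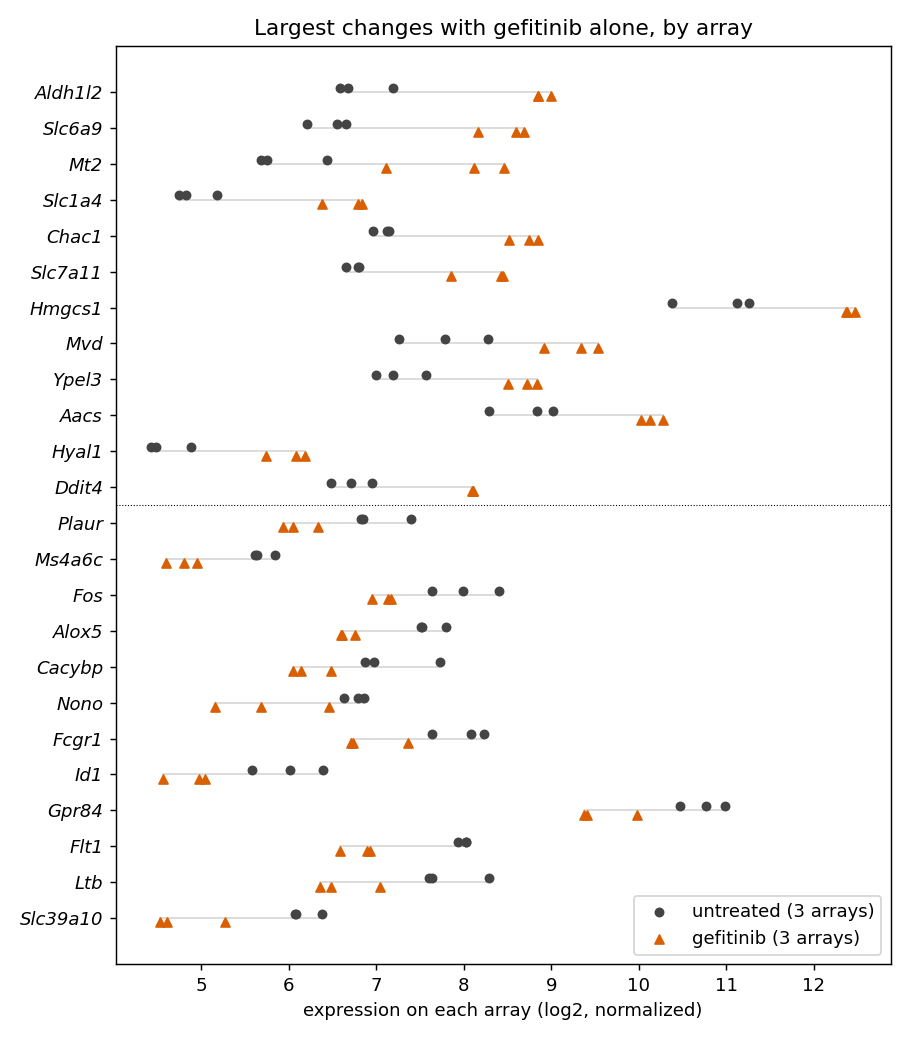
Normalized log2 expression (x axis) on each of the 3 untreated arrays (grey circles) and 3 gefitinib arrays (orange triangles) for the 12 highest and 12 lowest changes past the threshold, above and below the dotted line. Changes run from Aldh1l2 (2.08 on the log2 scale) to Slc39a10 (-1.37). Non-overlapping groups were a condition of being shown, and 31.1% of all genes tested had them.

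**Figure D2:**
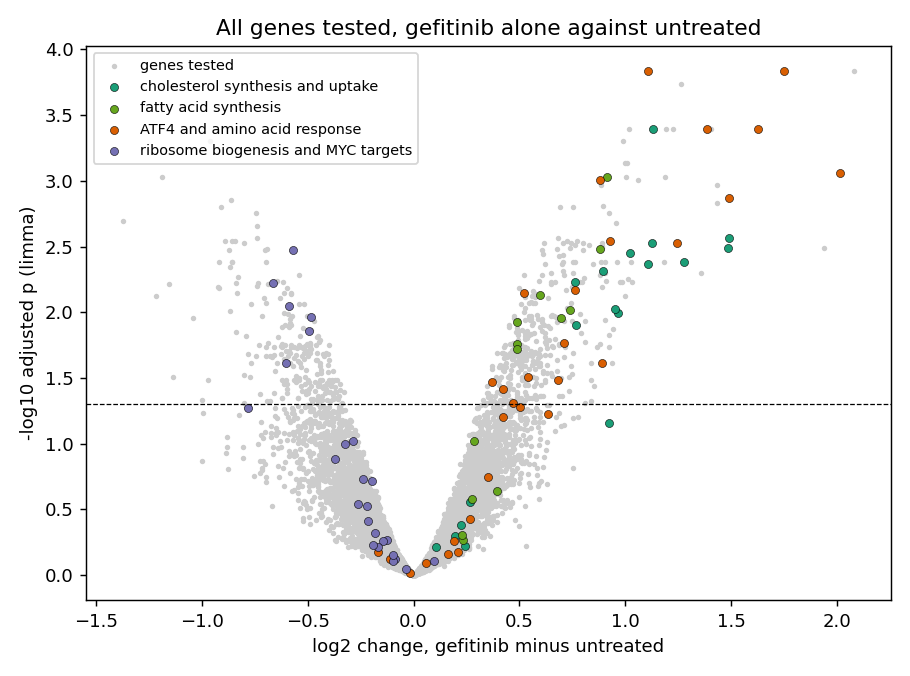
Log2 change with gefitinib alone (x axis) against -log10 of the limma adjusted p (y axis) for all 8101 genes, with 4 gene lists coloured and the 0.05 threshold dashed. All 18 cholesterol genes lie right of 0, and 24 of 25 ribosome biogenesis genes lie left of it.

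Genes of cholesterol synthesis rose together. Of 18 measured genes of this list, 12 rose and 0 fell, against 4.96% and 2.84% of all genes tested, and all 18 had a positive log2 change, with a median of 0.94. Hmgcs1 encodes the synthase that makes HMG-CoA, the substrate of the rate-limiting reductase of the pathway. Its RefSeq promoter window (GRCm38.p6, chr13:119690101-119690400, plus strand, 250 bases before to 50 after the start) is shown because it holds, in capitals, a sterol regulatory element (TCACNCCAC) and CCAAT boxes (CCAAT or, on the other strand, ATTGG), the motif pair of SREBP and its partner NF-Y.
Hmgcs1: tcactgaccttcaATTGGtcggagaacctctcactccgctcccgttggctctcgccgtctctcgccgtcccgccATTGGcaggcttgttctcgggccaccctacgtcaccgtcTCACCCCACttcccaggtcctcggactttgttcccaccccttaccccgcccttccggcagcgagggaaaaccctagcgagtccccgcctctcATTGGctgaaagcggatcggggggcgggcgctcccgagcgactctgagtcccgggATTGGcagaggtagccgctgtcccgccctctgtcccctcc
Both strands were searched. The element, whose first base lies 137 bases before the start, was found in 1 of the 9 raised genes of the list that matched a window and in 1.24% of all 32851 windows. CCAAT boxes were found in 9 of 9 and in 37.4%, and no overlap was seen between the motifs printed. The list counts take a gene with the motif in any window, while the percentages count single windows. Hmgcs1 read 10.38, 11.12 and 11.27 in untreated cells and 12.48, 12.37 and 12.39 with gefitinib. All gefitinib arrays lay above all untreated ones, as for every gene that rose, and the change was 1.49 ± 0.22 (adjusted p = 0.00271).

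Changes of the cholesterol genes ran along the whole pathway. Early in it, Mvd, which makes isopentenyl diphosphate, read 7.27, 7.79 and 8.28 untreated and 9.53, 8.92 and 9.34 with gefitinib (1.49 ± 0.23, adjusted p = 0.00327). Pmvk, the preceding kinase, rose by 0.77 ± 0.16, and Fdps, the farnesyl diphosphate synthase, by 0.89 ± 0.15. At the entry to sterols, Sqle, the squalene epoxidase, rose by 1.13 ± 0.17 and Lss, which closes the ring to lanosterol, by 1.02 ± 0.16. Later enzymes followed. Cyp51, the lanosterol demethylase, read 7.97, 8.64 and 8.86 untreated and 9.74, 9.67 and 9.89 with gefitinib (1.28 ± 0.21, adjusted p = 0.00418). Nsdhl, a sterol dehydrogenase, rose by 1.13 ± 0.12 (adjusted p = 0.000404), and its 3 other probes gave 0.98 to 1.41. Msmo1, a methylsterol oxidase, rose by 0.95 ± 0.19, Hsd17b7, a ketosteroid reductase of the pathway, by 0.76 ± 0.14, and Dhcr7, which turns the last precursor into cholesterol, by 0.97 ± 0.19. Stard4, a sterol carrier between membranes, rose by 1.11 ± 0.19. Under median scaling 9 of these 12 rose, without Fdps (adjusted p = 0.071), Pmvk (adjusted p = 0.065) and Hsd17b7 (adjusted p = 0.0887). The regulators did not pass. Srebf2, the SREBP gene of this pathway, had a change of 0.26 (adjusted p = 0.28) and Insig1, which holds SREBP back, 0.24 (adjusted p = 0.6).

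Untreated 1 had the lowest cholesterol genes. Over the 18 genes the mean level was -0.28 in untreated 1, 0.12 in untreated 2 and 0.16 in untreated 3, relative to the mean of these arrays, and 0.86, 0.77 and 0.87 on the gefitinib arrays. Without untreated 1, 12 of the list still rose, and without gefitinib 3, 10 did, with Dhcr7 (adjusted p = 0.0533) and Pmvk (adjusted p = 0.0512) no longer past the threshold. Aacs, which turns acetoacetate into a precursor of sterols and fatty acids and was not on the list, read 8.29, 8.84 and 9.02 untreated and 10.28, 10.13 and 10.03 with gefitinib (1.43 ± 0.19, adjusted p = 0.00108).

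Fatty acid synthesis genes also rose, by less. Of 13 measured, 8 rose and 0 fell, and all 13 changes were positive, with a median of 0.49. Scd1, the stearoyl-CoA desaturase that makes monounsaturated fat, read 8.39, 8.51 and 8.56 untreated and 9.54, 9.33 and 9.33 with gefitinib (0.91 ± 0.11, adjusted p = 0.000933). Acss2, which supplies acetyl-CoA from acetate, rose by 0.88 ± 0.14 (adjusted p = 0.00329), and the related desaturase gene Scd2 by 0.74 ± 0.14. Fads2 (0.70 ± 0.14) and Fads1 (0.49 ± 0.10), desaturases of polyunsaturated fatty acids, the elongase gene Elovl6 (0.60 ± 0.11), the citrate lyase gene Acly (0.49 ± 0.11) and the acyl-CoA synthetase gene Acsl3 (0.49 ± 0.11) made up the rest. Without gefitinib 3 the count was 5, with Scd2 (adjusted p = 0.0526), Fads2 (adjusted p = 0.0577) and Acsl3 (adjusted p = 0.0678) below the threshold. Acly was lost without gefitinib 1, untreated 1 or untreated 2 (adjusted p = 0.0607 to 0.067), Acsl3 also without gefitinib 1 or untreated 1 (adjusted p = 0.0578 and 0.0629), and Fads1 without untreated 2 (adjusted p = 0.052). Median scaling of the arrays left 3. Srebf1, the SREBP gene of this branch, had a change of 0.23 (adjusted p = 0.5).

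Among 6 genes of the LXR and cholesterol efflux list, 2 rose and 0 fell. These were Lpcat3, a phospholipid acyltransferase (0.56 ± 0.13, adjusted p = 0.0234), and Abca7, a lipid transporter (0.44 ± 0.12, adjusted p = 0.0427). The other probe gave 0.07 for Lpcat3 and 0.26 for Abca7 and did not pass, and both calls were lost with a mean over probes. Lpcat3 was lost without any one of 3 arrays, gefitinib 2 and 3 and untreated 1 (adjusted p = 0.0522 to 0.113), and Abca7 without any one of the 6 (adjusted p = 0.0629 to 0.142). Abcg1, a sterol exporter, had a change of -0.72 (adjusted p = 0.153).

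**Figure D3:**
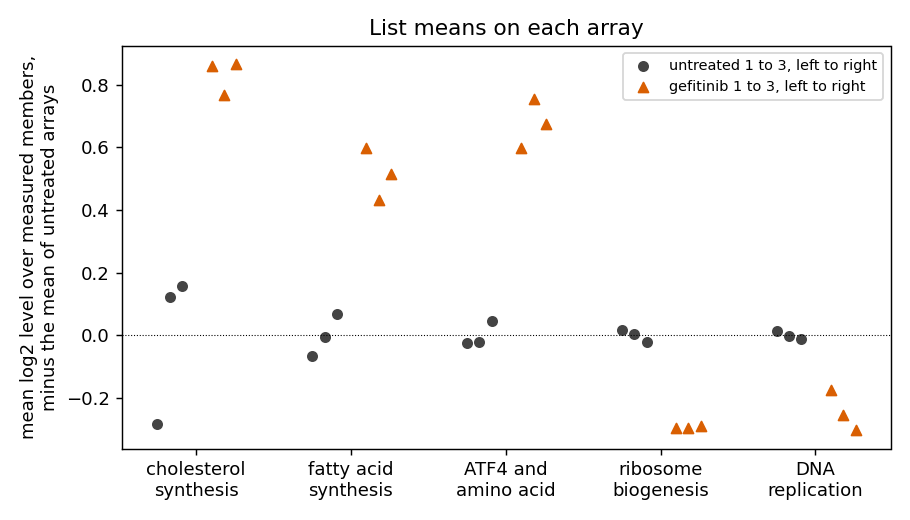
Mean log2 level over the measured members of 5 lists on each array, minus the mean of the untreated arrays (y axis), with untreated arrays as grey circles and gefitinib arrays as orange triangles. For cholesterol synthesis the gefitinib arrays sit between 0.77 and 0.87, and untreated 1 lies at -0.28.

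Changes of lysosome and autophagy genes were small and mostly upward. Of 40 measured, 7 rose and 0 fell, 34 had a positive change, and the median was 0.28. Psap, the precursor of the saposins that aid sphingolipid breakdown, read 11.87, 12.04 and 11.81 untreated and 12.70, 12.40 and 12.74 with gefitinib (0.71 ± 0.11, adjusted p = 0.0037). Gpnmb, a glycoprotein gene that rises in lysosome-loaded macrophages, rose by 0.69 ± 0.14, with all 3 other probes also past the threshold (0.67 to 1.00). Mcoln1, the lysosomal calcium channel, rose by 0.61 ± 0.12 and Neu1, a sialidase, by 0.50 ± 0.12. The count was 1 without gefitinib 3 (Psap), 3 without untreated 2, 3 without untreated 3, 4 without untreated 1, 5 without gefitinib 1 and 6 without gefitinib 2. Without gefitinib 3 the adjusted p was 0.0558 for Gpnmb, 0.0615 for Mcoln1 and 0.106 for Neu1, and without untreated 1, 2 or 3 it was 0.0702, 0.0608 or 0.0516 for Neu1. The count was 0 with median scaling and 16 from the authors' value table. Hyal1, a lysosomal hyaluronidase gene not on the list, was detected on 0 of 3 untreated arrays, read 5.74, 6.08 and 6.18 with gefitinib, and rose at least 2.11-fold (adjusted p = 0.000404). Such a lower limit is given for a gene with no detected probe in the dimmer group, where the lowest detected signal of each array sets a bound.

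Genes of the ATF4 and amino acid response rose. Of 30 measured genes of the ATF4 and amino acid response, 18 rose and 0 fell, and the median change was 0.53. The RefSeq promoter windows of Chac1 (GRCm38.p6, chr2:119350992-119351291, plus strand) and Slc7a11 (chr3:50443564-50443863, minus strand) are shown because both hold, in capitals, the composite C/EBP-ATF element TGATGNAA, or its reverse complement, to which ATF4 binds.
Chac1: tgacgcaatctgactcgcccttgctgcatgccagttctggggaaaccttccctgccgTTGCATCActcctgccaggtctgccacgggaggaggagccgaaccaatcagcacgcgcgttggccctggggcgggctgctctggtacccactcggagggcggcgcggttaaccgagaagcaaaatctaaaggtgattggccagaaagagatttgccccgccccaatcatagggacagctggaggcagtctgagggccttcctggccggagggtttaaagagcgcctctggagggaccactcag
Slc7a11: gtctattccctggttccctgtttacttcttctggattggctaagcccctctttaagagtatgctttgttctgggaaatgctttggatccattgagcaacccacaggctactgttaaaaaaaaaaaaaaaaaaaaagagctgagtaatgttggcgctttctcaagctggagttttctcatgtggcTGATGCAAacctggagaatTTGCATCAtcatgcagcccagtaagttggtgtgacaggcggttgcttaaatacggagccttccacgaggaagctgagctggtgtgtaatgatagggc
On both strands, 6 of the 16 raised list genes with a window held the element in any window (37.5%), against 3.97% of all windows. The first share counts genes and the second single windows, so their units differ. Slc7a11 held 2, with first bases 66 and 47 before the start, and Chac1 1, at 193 before it. Chac1, an enzyme that breaks down glutathione, read 7.14, 6.96 and 7.13 untreated and 8.85, 8.74 and 8.52 with gefitinib (1.63 ± 0.18, adjusted p = 0.000404). Slc7a11, the cystine importer that feeds glutathione synthesis, read 6.65, 6.80 and 6.79 untreated and 7.86, 8.44 and 8.42 with gefitinib (1.49 ± 0.20, adjusted p = 0.00136). For both genes the gefitinib arrays lay wholly above the untreated ones, as for every gene that rose.

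Transporters differed in size of change. Slc6a9, the glycine transporter, read 6.55, 6.20 and 6.65 untreated and 8.16, 8.59 and 8.69 with gefitinib (2.01 ± 0.25, adjusted p = 0.000869). Slc1a4, a carrier of small neutral amino acids, was detected on 1 of 3 untreated arrays, read 4.83, 4.75 and 5.18 there and 6.38, 6.80 and 6.83 with gefitinib (1.75 ± 0.16, adjusted p = 0.000146). The glutamine and alanine carrier Slc38a2 rose by 0.52 ± 0.10 and the leucine carrier Slc7a5 by 0.47 ± 0.13. The 2 other probes of Slc38a2 gave 0.27 and 0.11 and did not pass.

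Enzymes of amino acid and one-carbon metabolism followed. Aldh1l2, a mitochondrial folate enzyme not on the list, had the largest change of all, from 7.19, 6.67 and 6.58 untreated to 8.85, 9.0 and 8.85 with gefitinib (2.08 ± 0.18, adjusted p = 0.000146). Gpt2, the mitochondrial alanine transaminase, rose by 1.11 ± 0.10, and Asns, the asparagine synthetase, by 0.88 ± 0.11, with its 2 other probes at 0.66 and 0.97 and also past the threshold. The serine synthesis genes Phgdh (0.54 ± 0.14) and Psat1 (0.42 ± 0.11) and Shmt2, which passes serine carbon to folate (0.37 ± 0.10), rose by less.

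The stress regulators of the same list rose too. Ddit4, an inhibitor of mTOR signalling, read 6.49, 6.71 and 6.95 untreated and 8.11, 8.10 and 8.10 with gefitinib (1.39 ± 0.15, adjusted p = 0.000406). Atf5, a transcription factor close to ATF4, read 8.81, 8.95 and 8.94 untreated and 9.76, 10.29 and 10.39 with gefitinib (1.25 ± 0.19, adjusted p = 0.00298). Nupr1, a stress-induced chromatin protein, rose by 0.93 ± 0.14, Ddit3, which encodes the death-linked factor CHOP, by 0.89 ± 0.22, and Eif4ebp1, a brake on translation initiation, by 0.76 ± 0.14. Sesn2, a leucine sensor, rose by 0.71 ± 0.16 and Trib3, a pseudokinase, by 0.68 ± 0.18, both detected on 1 of 3 untreated arrays. Atf4 itself had a change of 0.27 (adjusted p = 0.37).

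Leaving out 1 array at a time left 11 to 14 of these 18 genes past the threshold, with 11 left without gefitinib 3 and without untreated 1. Phgdh and Shmt2 were lost without any one of the 6 arrays, Psat1 without any but untreated 3, Slc7a5 without any but gefitinib 1, Trib3 without gefitinib 2 or 3 or untreated 1 or 2, Ddit3 without gefitinib 1 or 3 or untreated 1 or 3, and Sesn2 without gefitinib 1 or 3 or untreated 1 or 2 (adjusted p = 0.0518 to 0.164). Median scaling left 10. Of 19 cytosolic aminoacyl-tRNA synthetase genes, whose enzymes charge tRNAs and which ATF4 also raises, 4 rose and 0 fell. These were Aars (0.71 ± 0.12, adjusted p = 0.00517), Nars (0.56 ± 0.11, adjusted p = 0.00858), Mars1 (0.56 ± 0.14, adjusted p = 0.0244) and Iars (0.49 ± 0.12, adjusted p = 0.0236). Mars1 was lost without gefitinib 2 or 3 or untreated 1 or 3, and Iars without any array but gefitinib 3 (adjusted p = 0.0507 to 0.111). The other probe gave 0.16 for Mars1 and 0.33 for Iars and did not pass, and Mars1 was also lost with a mean over probes. Median scaling left 0 of the list past the threshold.

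Genes of the endoplasmic reticulum chaperone program were called at a rate near the background. Of 16 measured genes of the unfolded protein response, 0 rose and 1 fell (6.25%), against 4.96% and 2.84% of all genes. Their median was -0.21. The gene that fell was Creld2, a secreted chaperone partner (-0.44 ± 0.13, adjusted p = 0.0471), and it was lost without any array but untreated 2 (adjusted p = 0.0823 to 0.174). Of 13 heat shock chaperone genes 0 rose, and Cacybp, an adaptor of ubiquitin ligases, fell from 7.73, 6.88 and 6.97 to 6.14, 6.49 and 6.04 (-0.97 ± 0.25, adjusted p = 0.0326). Cacybp was lost without gefitinib 1 or 3 or untreated 1 or 3 (adjusted p = 0.052 to 0.127).

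Metal-handling genes moved in both directions. Of 14 measured genes of metallothioneins, zinc and iron, 3 rose and 2 fell. Metallothioneins bind zinc and copper and are switched on by the zinc sensor MTF1 through metal response elements (TGCACNC or TGCGCNC). The RefSeq windows of Mt1 (GRCm38.p6, chr8:94178839-94179138, plus strand) and Mt2 (chr8:94172368-94172667, plus strand) are shown with these elements in capitals.
Mt1: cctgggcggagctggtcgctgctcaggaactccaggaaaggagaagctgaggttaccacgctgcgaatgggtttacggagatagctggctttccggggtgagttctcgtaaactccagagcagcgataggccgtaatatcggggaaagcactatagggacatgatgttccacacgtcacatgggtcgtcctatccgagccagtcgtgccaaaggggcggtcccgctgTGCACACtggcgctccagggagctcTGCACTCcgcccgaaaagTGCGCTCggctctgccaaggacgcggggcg
Mt2: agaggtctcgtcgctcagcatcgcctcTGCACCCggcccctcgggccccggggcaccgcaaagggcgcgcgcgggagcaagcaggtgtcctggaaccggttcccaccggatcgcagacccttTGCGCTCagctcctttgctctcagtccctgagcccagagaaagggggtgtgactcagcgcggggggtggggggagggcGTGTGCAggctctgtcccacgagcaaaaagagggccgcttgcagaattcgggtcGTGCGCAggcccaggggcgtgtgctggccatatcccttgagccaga
Both strands were searched, and Mt1 held 3 and Mt2 4. The motif is short, and 25.7% of all windows held it. Mt1 read 13.51, 13.59 and 13.59 untreated and 14.37, 14.72 and 14.57 with gefitinib (0.99 ± 0.11, adjusted p = 0.000497). Mt2 read 6.43, 5.75 and 5.69 untreated and 7.11, 8.46 and 8.12 with gefitinib (1.94 ± 0.30, adjusted p = 0.00327). Gefitinib 1 was the lowest of the gefitinib arrays for both genes.

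Zinc importers fell beside them. Slc39a10 read 6.38, 6.07 and 6.08 untreated and 5.28, 4.61 and 4.53 with gefitinib, where it was detected on 1 of 3 arrays (-1.37 ± 0.19, adjusted p = 0.00201), the largest fall of any gene past the threshold. Slc39a1 read 6.95, 6.71 and 6.94 untreated and 6.06, 6.11 and 5.84 with gefitinib (-0.86 ± 0.12, adjusted p = 0.00141). Slc30a1, a zinc exporter, had a change of 0.50 (adjusted p = 0.092). Slc40a1, which encodes the iron exporter ferroportin, read 9.70, 9.62 and 9.64 untreated and 10.99, 10.82 and 10.94 with gefitinib (1.26 ± 0.12, adjusted p = 0.000182), while the ferritin genes Fth1 and Ftl1 had changes of 0.00 and 0.13. The counts of 3 and 2 held with any array left out, with 4 rising without gefitinib 1.

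Targets of FOXO, p53 and the death-promoting BCL2 family gave a handful of calls. Of 11 FOXO targets, 3 rose and 0 fell, and under median scaling Cxcr4 alone of the 3 passed (adjusted p = 0.0531 for Fbxo32 and 0.0674 for Bcl2l11). Cxcr4, the receptor of the chemokine CXCL12, read 8.47, 8.37 and 8.48 untreated and 9.45, 9.70 and 9.73 with gefitinib (1.18 ± 0.20, adjusted p = 0.00418). Fbxo32, a ubiquitin ligase subunit of muscle wasting, rose at least 1.15-fold (adjusted p = 0.00779), with 0 of 3 untreated arrays detecting it. Bcl2l11, which encodes the death promoter BIM, rose by 0.75 ± 0.14 (adjusted p = 0.00646), but its 2 other probes gave 0.06 and 0.19 and did not pass.

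Of 20 p53 targets, 3 rose (15%, against 4.96% of all genes) and 0 fell, with a median of 0.04. Trp53inp1, an autophagy and stress protein, read 5.51, 5.27 and 5.10 untreated and 6.23, 6.32 and 6.53 with gefitinib (1.06 ± 0.13, adjusted p = 0.000989). Bbc3, which encodes the death promoter PUMA, rose by 0.87 ± 0.20 (adjusted p = 0.0183), with 2 other probes at 0.19 and 0.01, and was lost without gefitinib 2 or 3 or untreated 1 or 2 (adjusted p = 0.0517 to 0.0825). The third was Sesn2, given above. Of 12 BCL2 family genes, Bcl2l11 and Bbc3 were the 2 that rose, and 0 fell. Ypel3, a growth-suppressing gene on none of the lists, read 7.57, 6.99 and 7.20 untreated and 8.72, 8.50 and 8.84 with gefitinib (1.44 ± 0.19, adjusted p = 0.00147), and its other probe gave 0.22 and did not pass. Among 11 genes of G1 control, Mxd4, a MYC antagonist, rose at least 1.5-fold (adjusted p = 0.0244) and Rb1, the retinoblastoma gene, rose by 0.45 ± 0.13 (adjusted p = 0.0494), while the cyclin gene Ccnd3 fell by 0.40 ± 0.10 on the log2 scale (adjusted p = 0.0328). Each of these 3 was lost without any one of at least 3 of the 6 arrays (adjusted p = 0.0557 to 0.159).

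Genes that follow ERK signalling were called at a rate near the background. Of 22 measured early and feedback genes, 1 rose and 1 fell (4.55% each), against 4.96% and 2.84% of all genes. The median was -0.01, or -0.05 over the 18 genes detected on at least 3 of the 6 arrays. The others passed the detection filter only with the CpG arrays counted. Dusp6, an ERK phosphatase gene that tracks ERK activity, read 10.02, 9.85 and 9.89 untreated and 9.99, 9.82 and 9.82 with gefitinib, a difference of -0.04 ± 0.12 (adjusted p = 0.876). The Dusp6 groups overlapped on this probe, and its other probes gave -0.45 and 0.20 and did not pass. Fos, which encodes a subunit of the AP-1 transcription factor, read 8.41, 7.64 and 7.99 untreated and 7.13, 7.17 and 6.95 with gefitinib (-0.93 ± 0.17, adjusted p = 0.00646). Egr2, another early transcription factor, was detected on 0 of 3 untreated arrays, read 6.27, 6.53 and 5.42 with gefitinib and rose at least 2.22-fold (adjusted p = 0.00505). Fos and Egr2 therefore lay on opposite sides, and both stayed past the threshold with any of the 6 arrays left out. Id1, a target of BMP signalling, fell from 6.40, 6.01 and 5.58 to 4.97, 5.05 and 4.56 (-1.13 ± 0.29, adjusted p = 0.0312), and was lost without any array but untreated 3 (adjusted p = 0.0578 to 0.13).

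**Figure D4:**
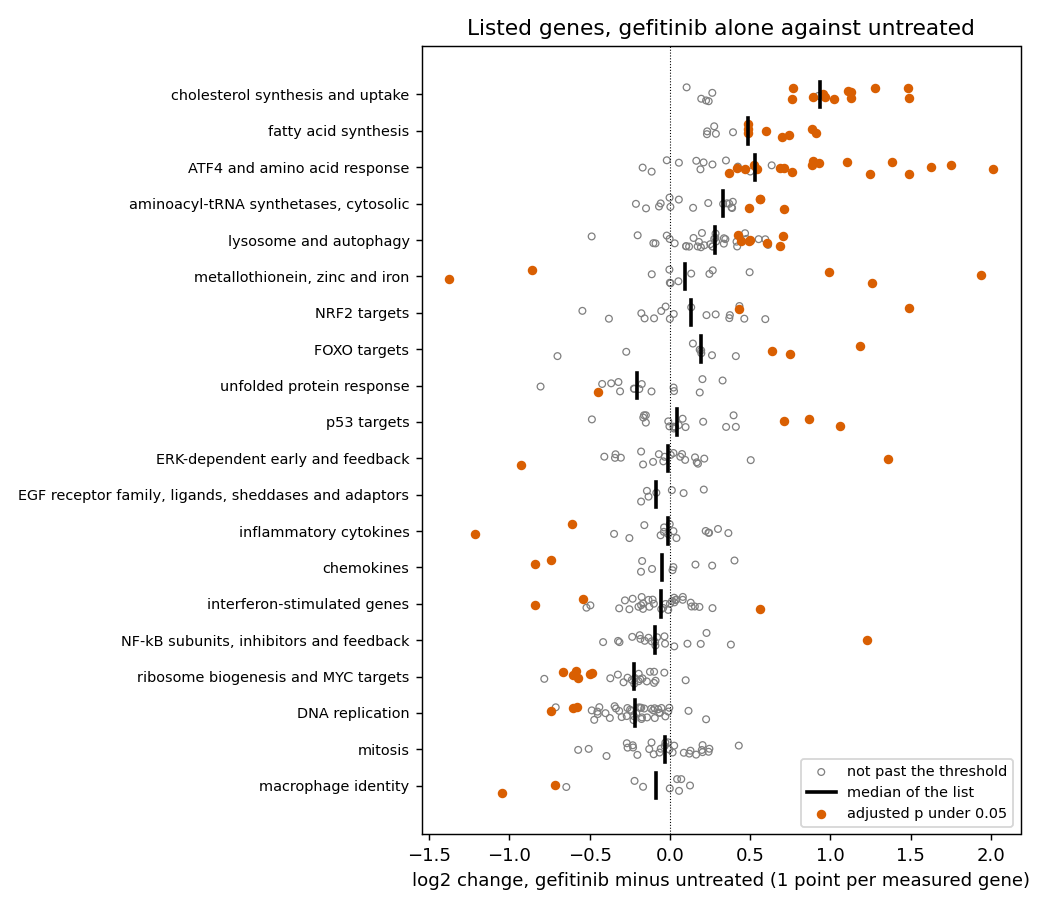
Log2 change with gefitinib alone (x axis) for each measured gene of 20 lists, filled where the adjusted p is under 0.05, with the list median as a bar. The cholesterol median lies at 0.94 and the ATF4 median at 0.53, while the ERK median lies at -0.01. The points of the ERK, NF-kB, cytokine, chemokine and interferon lists, among others, include genes detected on fewer than 3 of the 6 arrays.

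Inflammatory genes gave few calls, and many of them had no signal at rest, since a gene was tested where at least 3 of the 12 arrays detected it. Of 17 cytokine genes tested, 0 rose and 2 fell (11.8%), against 4.96% and 2.84% of all genes. Of the 17, 9 were detected on at least 3 of the 6 arrays, with a median of -0.06 over these 9. Ltb, the lymphotoxin beta gene, read 8.29, 7.63 and 7.60 untreated and 7.05, 6.36 and 6.48 with gefitinib (-1.22 ± 0.23, adjusted p = 0.0075). Tnf, the tumour necrosis factor gene, read 8.61, 8.54 and 8.70 untreated and 8.01, 7.90 and 8.11 with gefitinib (-0.61 ± 0.15, adjusted p = 0.0229). The Tnf call was lost without any one of the 6 arrays (adjusted p = 0.0537 to 0.0818). Il1b was detected on 0 of the 6 arrays and Cxcl10 on 1 untreated array, so no fold is given for either.

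Of 10 chemokine genes, of which 4 were detected on at least 3 of the 6 arrays, 0 rose and 2 fell. Ccl9, a macrophage attractant, read between 10.82 and 11.02 on the untreated arrays and 10.35, 10.09 and 10.18 on the gefitinib arrays (-0.74 ± 0.11, adjusted p = 0.00219). Cxcl16, a scavenger receptor and chemokine in one, fell by 0.84 ± 0.18 on the log2 scale (adjusted p = 0.0141) and was lost without gefitinib 2 or 3 or untreated 1 (adjusted p = 0.0558 to 0.0656). Of 35 interferon-stimulated genes, of which 24 were so detected, 1 rose (2.86%) and 2 fell (5.71%), against 4.96% and 2.84% of all genes. Ifi47, an interferon-induced GTPase gene, fell by 0.84 ± 0.15 on the log2 scale (adjusted p = 0.006), and Igtp, a related GTPase gene, by 0.54 ± 0.12 (adjusted p = 0.0176). Igtp was lost without gefitinib 2 or untreated 1 (adjusted p = 0.0638 and 0.0644). Stat2, a subunit of the interferon response factor, rose by 0.56 ± 0.14 (adjusted p = 0.0236) and was lost without any array but gefitinib 3 (adjusted p = 0.0592 to 0.0889). Of 20 NF-kB genes, of which 17 were so detected, 1 rose and 0 fell. Cd83, a dendritic cell surface marker, rose from 7.41, 7.33 and 7.37 to 8.49, 8.71 and 8.59 (1.23 ± 0.13, adjusted p = 0.000404). Among 22 Toll-like receptor signalling genes 0 passed, with 1 to 3 rising from the authors' value table, with an intensity trend, with a replicate block, and under other filters.

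Several of the genes with the largest falls were on none of the lists. Flt1, a receptor for vascular endothelial growth factor, read 7.93, 8.03 and 8.03 untreated and 6.90, 6.93 and 6.59 with gefitinib (-1.19 ± 0.15, adjusted p = 0.000933). Gpr84, a receptor for medium-chain fatty acids, read 10.99, 10.77 and 10.47 untreated and 9.98, 9.37 and 9.40 with gefitinib (-1.16 ± 0.21, adjusted p = 0.00613). Alox5, the lipoxygenase that starts leukotriene synthesis, read 7.80, 7.52 and 7.53 untreated and 6.60, 6.76 and 6.60 with gefitinib (-0.96 ± 0.11, adjusted p = 0.000497). Groups did not overlap for any of these, as for every changed gene. Plaur, the urokinase receptor, fell by 0.92 ± 0.15 on the log2 scale (adjusted p = 0.00418), and Ms4a6c, a membrane protein gene of monocytes, by 0.92 ± 0.17 (adjusted p = 0.00655), with Ms4a6c detected on 1 of 3 gefitinib arrays.

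Of 10 macrophage identity genes 0 rose and 2 fell (20%, against 2.84% of all genes). Fcgr1, the high-affinity IgG receptor, read 8.23, 7.63 and 8.08 untreated and 7.36, 6.73 and 6.72 with gefitinib (-1.04 ± 0.21, adjusted p = 0.011), and Aif1, an actin-binding protein of macrophages, fell by 0.72 ± 0.14 on the log2 scale (adjusted p = 0.0106). Without gefitinib 3 both were lost (adjusted p = 0.0575 and 0.0557). Adgre1, which encodes the F4/80 antigen, read 9.96, 8.95 and 9.18 untreated and 8.75, 8.68 and 8.73 with gefitinib, and missed the threshold (-0.64 ± 0.20, adjusted p = 0.0634). S100a8, a calcium-binding protein of granulocytes and activated macrophages and 1 of 4 measured lymphocyte and granulocyte markers, fell by 0.78 ± 0.18 on the log2 scale (adjusted p = 0.0209) and was lost without gefitinib 2 or 3 or untreated 1 (adjusted p = 0.078 to 0.0846). Summed background-corrected signal of 7 granulocyte markers, S100a8 among them, was 191 to 272 in untreated cells and 136 to 167 with gefitinib. S100a8 alone of the 7 was detected on all 6 arrays, so the sum does not show a fall across them. The defining markers Mpo, Prtn3, Ngp and S100a9 were detected on 0 of the 6 arrays. The part of granulocytes in these falls was not tested. In antigen presentation, 2 of 16 rose, the costimulatory gene Cd86 (0.76 ± 0.13, adjusted p = 0.00418) and the MHC class I gene H2-K1 (0.59 ± 0.15, adjusted p = 0.0257), the latter lost without gefitinib 1 or 3 or untreated 2 or 3 (adjusted p = 0.0764 to 0.121). H2-K1 has close paralogs that may share its probe.

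Growth-related genes had small and mostly negative changes. Of 25 genes of ribosome biogenesis and MYC targets, 0 rose and 6 fell, 24 had a negative change, and the median was -0.22. Under median scaling, which moved the median of all genes to -0.08, that of the list was -0.43 and 3 fell. Ncl, the nucleolin gene, read 11.38, 11.23 and 11.33 untreated and 10.74, 10.74 and 10.77 with gefitinib (-0.57 ± 0.09, adjusted p = 0.00336), and its other probe gave -0.75 and also passed. Bop1, which matures the large ribosomal subunit, fell by 0.67 ± 0.12 on the log2 scale (adjusted p = 0.00597), Rrp9, a nucleolar RNA partner, by 0.59 ± 0.11 (adjusted p = 0.00898) and Srm, the spermidine synthase, by 0.48 ± 0.10 (adjusted p = 0.0108). Srm was lost without gefitinib 3 (adjusted p = 0.0584), and with 1 array left out 4 to 6 of the list fell. The list mean was -0.30, -0.30 and -0.29 on the gefitinib arrays relative to untreated, where the range was -0.02 to 0.02.

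DNA replication genes had a median of -0.22 with 40 of 42 changes negative, yet 3 fell and 0 rose. Under median scaling the median was -0.39 and 1 fell. Cdc6, which loads the replicative helicase, read 9.25, 9.06 and 9.33 untreated and 8.48, 8.37 and 8.57 with gefitinib (-0.74 ± 0.11, adjusted p = 0.00271). Ccne2, a cyclin of S-phase entry, fell by 0.60 ± 0.14 on the log2 scale (adjusted p = 0.0197) and Rrm2, a subunit of ribonucleotide reductase, by 0.58 ± 0.13 (adjusted p = 0.0177). Ccne2 was lost without gefitinib 3 or untreated 1 or 2 and Rrm2 without gefitinib 2 or 3 or untreated 1 (adjusted p = 0.0518 to 0.0821). The authors' value table gave 13 falls and an intensity trend 9. Mitosis genes had a median of -0.03, or -0.17 under median scaling, and 0 of 29 passed, with 1 or 2 falls under 5 of the alternatives and 1 rise with a replicate block.

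Several other lists stayed near the background. In the NRF2 list Slc7a11 and Srxn1, a peroxiredoxin repair enzyme (0.43 ± 0.10, adjusted p = 0.0218), rose among 19, and Srxn1 was lost without any array but untreated 2 (adjusted p = 0.0529 to 0.0813). Of 25 glycolysis and hypoxia genes Vegfa, the vascular endothelial growth factor gene, rose from 6.64, 6.56 and 6.82 to 7.57, 7.49 and 7.65 (0.90 ± 0.12, adjusted p = 0.00157). Of 31 respiratory chain genes Cycs, the cytochrome c gene, fell by 0.80 ± 0.23 on the log2 scale (adjusted p = 0.0494), lost without any array but gefitinib 2 (adjusted p = 0.0759 to 0.185). Of 5 drug efflux genes Abcc5, a nucleotide exporter, rose by 0.72 ± 0.16 (adjusted p = 0.0183), lost without gefitinib 3 or untreated 3 (adjusted p = 0.0813 and 0.0688). Nono, a nuclear RNA-binding protein gene, fell by 1.00 ± 0.28 on the log2 scale (adjusted p = 0.0465), lost without any array but gefitinib 2 (adjusted p = 0.0842 to 0.185). None of 4 alternative activation genes, 9 osteoclast genes and 1 fibroblast or epithelial gene passed here. Of 694 probes with no symbol, tested apart, 24 rose and 14 fell.

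The same contrast in CpG-treated cells, CpG with gefitinib against CpG, shares no array with the one above. There 3019 genes changed (37.3%), 1786 higher (22.0%) and 1233 lower (15.2%). Of the 402 genes that rose with gefitinib alone, 318 (79.1%) also rose with CpG present, which is 17.8% of the 1786, and 9 fell. Of the 230 that fell, 139 (60.4%) also fell there, 11.3% of the 1233, and 9 rose. The difference of both effects passed the test for 1000 genes (12.3%), 152 of them among the 632. Among the 318, the interaction passed with a larger effect with CpG for 58 and a smaller one for 0. Among the 139 the effect was larger for 37, and smaller effects were not counted. Both sets had to pass with CpG present, which favours larger effects there, so these counts cannot compare the directions.

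Sterol genes rose in both states, 12 of 18 without CpG and 15 of 18 with it. The median of the 18 cholesterol genes was 0.94 without CpG and 1.09 with it, and the interaction passed for 0 of them. Hmgcs1 changed by 1.49 ± 0.22 alone and by 1.84 with CpG, and Cyp51 by 1.28 ± 0.21 and 1.29. A missed threshold does not show equal effects. In simulated interactions with 200 genes changed, fewer than the 1000 called here, changes of 0.5 log2 units were recovered in 16% of cases. The fatty acid genes Scd1 (0.91 alone, 1.80 with CpG), Elovl6 (0.60 and 1.31) and Fads1 (0.49 and 1.11) had larger changes with CpG present (interaction adjusted p = 0.0025, 0.0093 and 0.011). Under median scaling the interaction of Elovl6 and Fads1 did not pass. Against untreated cells, CpG alone had changed Scd1 by -0.90, Elovl6 by -0.91 and Fads1 by -0.73. With gefitinib, Scd1 averaged 9.40 without CpG and 9.39 with it, Elovl6 9.47 and 9.26, and Fads1 12.7 and 12.6. Iron export and Cxcr4 also had larger changes with CpG present. Slc40a1 rose by 1.26 alone and 2.27 with CpG, and Cxcr4 by 1.18 and 4.22. CpG alone had changed Slc40a1 by -1.05 and Cxcr4 by -3.34. Slc40a1 averaged 10.91 with gefitinib alone and 10.87 with CpG and gefitinib. Cxcr4 averaged 5.10 with CpG alone, near the lowest detected signals of the CpG arrays (4.87 to 4.96), so its 4.22 is not an exact size.

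ATF4-list genes split. Slc6a9 changed by 2.01 alone and 2.05 with CpG, and Slc1a4 by 1.75 and 1.52. Chac1, however, changed by 1.63 alone and by -0.02 with CpG, and Slc7a11 by 1.49 and -0.51, with interactions of -1.65 (adjusted p = 0.00065) and -2.00 (adjusted p = 0.0003). Against the same untreated arrays, CpG alone changed Chac1 by 1.86 and Slc7a11 by 1.81. Cd83 (1.23 alone, -0.22 with CpG), Ddit4 (1.39 and 0.37) and Vegfa (0.90 and 0.00) also had negative interactions.

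Tnf, Ccl9 and Plaur fell in both states, and further with CpG. Tnf changed by -0.61 alone and -4.36 with CpG, Ccl9 by -0.74 and -3.11, and Plaur by -0.92 and -3.71. Over the list members detected on at least 3 of the 6 arrays without CpG, the median change of 4 chemokine genes was -0.29 alone and -3.41 with CpG, that of 24 interferon-stimulated genes -0.15 and -2.31, and that of 18 ERK-dependent genes -0.05 and -0.97. DNA replication genes had medians of -0.22 alone and 0.36 with CpG, with the interaction past the threshold for 21 of 42. Alox5 fell alone (-0.96) and rose with CpG present (0.42).

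**Figure D5:**
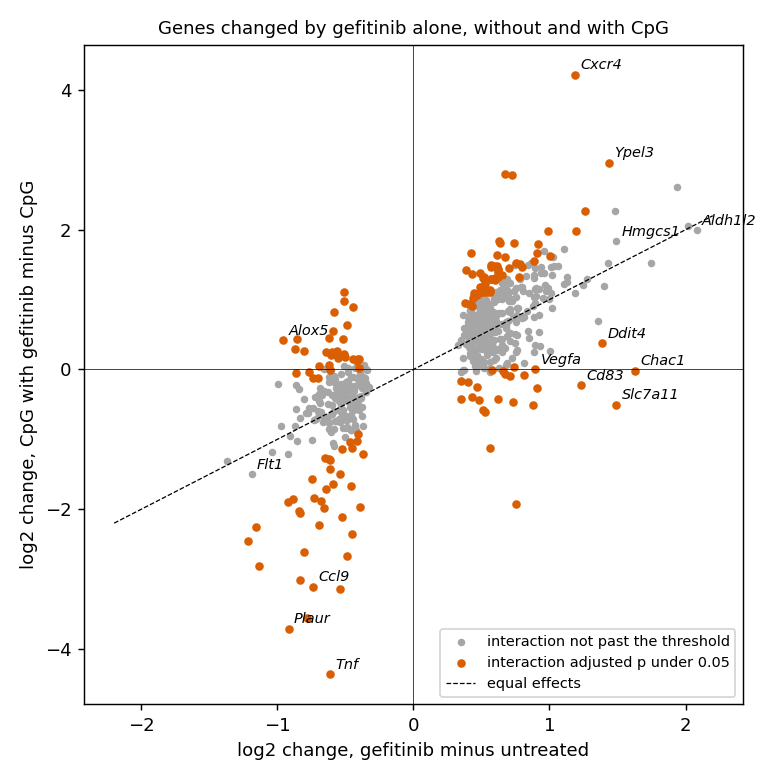
Log2 change with gefitinib alone (x axis) against the log2 change with gefitinib in CpG-treated cells (y axis) for the 632 genes changed by gefitinib alone, orange where the interaction passed the threshold (152 genes), with equal effects dashed. Cxcr4 lies at 1.18 and 4.22, and Tnf at -0.61 and -4.36. With CpG alone Cxcr4 averaged 5.10, near background, so its 4.22 is not an exact size.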

How the data were processed

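Messenger RNA of RAW264.7 cells was measured on 12 Illumina mouse bead arrays. The submitters' processing notes name GenomeStudio 2010.2. Per the file headers, the deposited table gives a linear, non-normalized intensity for each of 25697 probes, and beside it a detection p-value, also as deposited. A second table by the authors, also deposited, holds intensity values that keep each array's probe order (Spearman correlation of 1) and have medians of 120.007 to 120.064, so they look normalized between arrays on a linear scale, and it served as an alternative. The method behind it is not given in the sources used here. The array annotation gave 1 symbol to 23978 probes, and 1719 were not listed.

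Intensities were put on a log2 scale by the neqc function of limma 3.58.1 (R 4.3.3), which corrects background by means of the detection p, adds an offset of 16 and equalizes quantiles. A probe was kept where its detection p was under 0.05 on at least 3 of 12 arrays, and the brightest probe stood for its gene, which left 8101 genes. Levels are not comparable between genes. A linear model of the 4 groups was fitted to the 12 arrays (lmFit, eBayes), with Benjamini-Hochberg adjustment over all genes and a threshold of 0.05; "rose" and "fell" mean past it. The interaction is the gefitinib effect with CpG minus that without. On simulated data with 200 of 8101 genes changed, gefitinib against untreated recovered 40.7% of log2 differences of 0.5. It recovered 96.6% of those of 1 and 100% of those of 2, with 4.73% of calls false. The data gave 632 changed genes and 1000 for the interaction, so recovery in the data may differ from the simulated one. Replicates are biological per the labels, which name no batch. The numbers were not taken to pair arrays, since the labels do not say that they mark a shared culture. Same-numbered gefitinib and untreated arrays had deviations correlated at 0.18, -0.0311 and 0.192, and differently numbered ones at -0.262 to 0.123. For CpG with gefitinib and CpG the same-numbered values were 0.11, 0.344 and 0.35, and the others -0.375 to 0.0227. A shared replicate structure was not tested, and a fit with a replicate block, an alternative, gave 942 changed genes.

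Named genes were the 12 highest and 12 lowest changes past the threshold, up to 4 called genes per list, 15 genes given whatever their values, and the 6 lowest interaction p-values among changed genes. The 12 highest and 12 lowest were taken among genes with non-overlapping groups and detected on all arrays of the brighter group. For lists with at least 8 called genes all were named, which was chosen after their values were seen, as were single list members named without a call and the promoters shown. Members and the 33 lists (814 genes, 563 measured) were chosen with earlier results of these data known. Promoter windows and their coordinates are those of RefSeq on GRCm38.p6.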

Additional observations from a re-analysis of the deposited data

Results flagged for a closer look

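The results below were picked because the gefitinib effect differed between cells with and without CpG, by the interaction contrast of the limma fit at an adjusted p under 0.05. Each value is the log2 effect with CpG minus that without. No cause was tested.

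Among genes that rose with gefitinib alone, the difference was positive for Cxcr4 (3.04), Ypel3 (1.52), Slc40a1 (1.01), Scd1 (0.89), Elovl6 (0.71), Fads1 (0.62) and Rb1 (0.60). Against untreated cells, CpG alone had changed these genes by -3.34, -1.77, -1.05, -0.90, -0.91, -0.73 and -0.57, in that order. Cxcr4 averaged 5.10 with CpG alone, near background, so its difference is not an exact size. The difference was negative for Bcl2l11 (-2.68), Slc7a11 (-2.00), Stat2 (-1.68), Chac1 (-1.65), Cd83 (-1.45), Ddit4 (-1.01), Vegfa (-0.90), Srxn1 (-0.83) and Sesn2 (-0.81). In stimulated cells the effects on Bcl2l11 (-1.93), Stat2 (-1.12) and Srxn1 (-0.40) lay past the threshold in the other direction, while that on Sesn2 (-0.10) was not called.

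Among genes that fell with gefitinib alone, the difference was -3.75 for Tnf, -2.79 for Plaur, -2.77 for S100a8, -2.60 for Igtp, -2.37 for Ccl9, -2.19 for the lysosomal peptide transporter gene Slc15a3, -1.90 for the glutaredoxin gene Glrx, -1.68 for Id1, -1.25 for Ltb, -1.21 for Cxcl16, -1.19 for Ifi47, -1.10 for Gpr84 and -0.97 for Fos. Against untreated cells, CpG alone had raised each of these genes, by 1.21 (Fos) to 4.17 (Tnf) on the log2 scale. With gefitinib alone Slc15a3 had changed by -0.49 ± 0.11 and Glrx by -0.45 ± 0.10. Alox5 (1.38), Ccne2 (0.85) and the replication gene Cdc6 (0.62) differed in the positive direction.

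Of genes not past the threshold with gefitinib alone, the difference was -1.57 for Errfi1, -1.35 for Adgre1 and -0.79 for Dusp6. With CpG alone Il1b averaged 12.31 and Cxcl10 9.10 on the log2 scale, well above background, and with CpG and gefitinib 4.55 and 4.75. The fitted differences of -7.78 for Il1b and -4.17 for Cxcl10 are not exact sizes, since the other groups lay near background. Il1b was detected on 3 of the 12 arrays, none of them untreated or with gefitinib alone. Cxcl10 was detected on 5, of which 1 was untreated and 0 with gefitinib alone.

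Under median scaling 13 of these differences were no longer past the threshold, those of Ccne2, Cdc6, Ddit4, Dusp6, Elovl6, Fads1, Fos, Gpr84, Ltb, Rb1, Sesn2, Srxn1 and Vegfa. Rb1 was also lost with cyclic loess, Rb1 and Sesn2 from the authors' value table, and Gpr84, Ltb, Rb1 and Sesn2 with no filter. With a mean over probes Ypel3 (0.59) and Rb1 (0.47) were lost. Leaving out 1 array ended the call for Rb1, Sesn2, Gpr84, Ltb or Cdc6 in some cases (adjusted p between 0.0502 and 0.113).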

How the results depend on the processing

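All 102 named genes past the threshold kept their sign under the 16 alternatives applied to them, and 45 kept their call under every one that gave a value. Median scaling instead of quantile normalization reduced the 632 changed genes to 137, all among the 632 (87 higher, 50 lower), the interaction from 1000 to 534, and the rising fatty acid and ATF4 genes to 3 and 10. It ended the call of 47 of the 102 named genes: Aars, Abca7, Abcc5, Acly, Acsl3, Aif1, Asns, Bcl2l11, Cacybp, Ccnd3, Ccne2, Creld2, Cycs, Eif4ebp1, Elovl6, Fads1, Fbxo32, Fdps, Glrx, Gpnmb, H2-K1, Hsd17b7, Iars, Igtp, Lpcat3, Mars1, Mcoln1, Nars, Neu1, Nono, Phgdh, Pmvk, Psap, Psat1, Rb1, Rrm2, Rrp9, S100a8, Scd2, Shmt2, Slc15a3, Slc38a2, Slc7a5, Srxn1, Stat2, Tnf and Trib3. The authors' value table gave 951 changed genes with 387 lower, and an intensity trend in the prior 360 lower. The fit with a replicate block gave 942 genes, 564 higher and 378 lower, and ended no call among the named genes. Leaving out 1 of the 6 arrays gave 207 to 385 changed genes, 145 to 257 higher and 62 to 128 lower, and 5 to 8 rising fatty acid genes, with 1 fewer array in the fit. Among genes not past the threshold, leaving out 1 array moved Il1b between -0.00785 (without gefitinib 1) and 0.051, and Dusp6 between -0.100 and 0.011 (without untreated 1). The other filters, cyclic loess, the mean of probes and the fit of 6 arrays alone kept the count of changed genes between 574 and 759. The mean of probes ended the calls of Abca7, Bbc3, Bcl2l11, Ccnd3, Lpcat3, Mars1, Slc38a2 and Srxn1. Leaving out CpG or CpG with gefitinib arrays, added after seeing the data, gave 533 to 849. Signals near background limit genes undetected in 1 group to a bound.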
